A study of Sus scrofa with 22 samples.

Results

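Taste organoids of the pig that were finished in a medium called CQ were compared with organoids kept in the growth medium LPM. The comparison used the 6 libraries whose titles name it, 3 of CQ and 3 of LPM, of 22 libraries in the series. The organoids were derived from foliate papillae, the ridged taste organs along the edge of the tongue, and the labels list stem cells and mature taste cells of a foliate cell line. Cultures of the CQ arm spent days 0 to 10 in LPM before they were moved to CQ, where they stayed until day 16 or 17, and those of the other arm had LPM alone. The labels record no harvest day for the LPM arm, so culture age and medium cannot be told apart. The sources used here spell out neither name and do not list what CQ contains. LPM is described for other organoids of the series as holding R-spondin 2 (500 ng/ml), FGF10, noggin, SHH and Wnt3a (100 ng/ml), EGF (50 ng/ml), FGF2 (10 ng/ml) and insulin (10 nM). It further held CHIR99021, which activates Wnt signalling through GSK3, the TGF-beta receptor inhibitor A-83-01, the p38 inhibitor SB202190, the ROCK inhibitor Y-27632, forskolin, which raises cAMP, prostaglandin E2, nicotinamide and N-acetylcysteine. Whether the 3 libraries of an arm came from separate pigs, cultures or lines is not recorded, so p-values measure only the spread between these libraries, which may be technical.

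Taste buds are renewed throughout life from basal keratinocytes that express TP63, KRT5 and SOX2. Their mature cells fall into glia-like type I cells, type II cells that detect sweet, umami or bitter compounds through G protein-coupled receptors and TRPM5, and presynaptic type III cells that sense sour. Growth factors such as EGF and FGF act through the kinase ERK, which induces its own inhibitors, the SPRY and DUSP genes. Wnt, Hedgehog and Notch signals govern renewal and cell fate in this epithelium.

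The LPM libraries held 19619774 to 26009974 counts and the CQ libraries 14667093 to 16004815. Genes with at least 1 count numbered 17489 to 17920 in LPM and 14014 to 16005 in CQ, while genes with at least 10 counts numbered 13886 to 14222 and 13351 to 14673 (exact permutation test, two-sided, p = 0.1 and 1.0, where 0.1 is the smallest p that 3 against 3 allows). Low counts in CQ varied more than counting error gives. Among genes averaging 10 to 30 counts the variance between libraries was 12.73 times the mean in CQ and 1.75 times in LPM (medians). Results therefore rest on genes with a mean of at least 20 CPM (counts scaled to library size and TMM factor) in 1 arm, called genes at 20 CPM, for which the biological coefficient of variation was 15.9% in CQ and 14.2% in LPM. Log CPM of these genes correlated at 0.963 to 0.965 between CQ libraries, at 0.964 to 0.995 between LPM libraries and at 0.622 to 0.659 across arms. A gene with no read pair in CQ was set against a floor of 38.2 counts over the arm (0.811 CPM), which takes 12.73 reads as 1 molecule and allows 3 molecules. This floor was chosen after the values had been seen. Values are given for the 3 LPM and then the 3 CQ libraries in the order of their numbers, and means stand with the SD (n = 3 each). Intervals and floors cover counting error only.

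Organoids finished in CQ had less transcript of ERK feedback, secretory, mucosal surface and glycolysis genes. Most listed FGF and EGF signalling genes at 20 CPM were also lower, while lysosomal and heat shock genes were higher. Of 24 actin cytoskeleton genes 15 rose and 7 fell, but 10 rose and 8 fell against another LPM arm of the series. Of 13827 genes tested, 3189 were called higher in CQ (23.1%) and 3436 lower (24.8%), together 47.9% (edgeR's quasi-likelihood test, Benjamini-Hochberg adjusted p under 0.05). Of 8174 genes at 20 CPM, 60.4% were called, 2600 higher (31.8%) and 2336 lower (28.6%). These shares are the background against which the counts of each gene group in this comparison are read. Decreases were larger than increases. Among genes at 20 CPM, 1233 fell and 845 rose at least 2-fold, and 238 fell and 36 rose at least 10-fold, around a median log2 fold change of 0.06 over all of them. Tested against a change of 1.5-fold in place of 0, 1087 were called higher and 1374 lower.

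**Figure D1:**
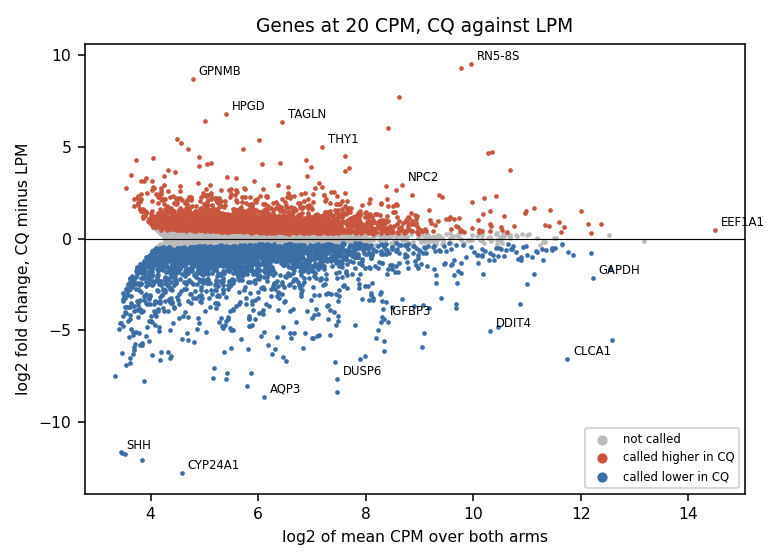
Log2 fold change of CQ minus LPM (vertical axis) against the log2 of the mean CPM over both arms (horizontal axis) for each of the 8174 genes at 20 CPM. Red points were called higher in CQ (2600), blue points lower (2336) and grey points were not called. The lowest points, such as CYP24A1 and SHH, are genes with 0 counts in CQ, where the plotted value depends on the prior count and is no bound.

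The LPM arm itself differed from LPM libraries elsewhere in the series. When the 3 CQ libraries were set against the 3 LPM libraries of a separate FGF10 experiment, 3410 genes at 20 CPM were called higher and 3073 lower, and the lists of cell cycle, ribosomal protein, oxidative phosphorylation and epithelial genes gave other counts. Those libraries were counted with another annotation and CPM were scaled separately, so the experiment and the medium cannot be told apart there. Counts with this other LPM arm are given beside many of the groups below. More genes were called with it in both directions than the 2600 and 2336 above. The shares of 31.8% and 28.6% are therefore not the background of those counts, and the shares with that arm are not given. Whether the count of a group with that arm departs from its background was not tested.

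Among the 15 genes at 20 CPM with the largest decreases, 5 had no read pair in any CQ library. The ranking used the fitted log2 fold change, which depends on the prior count for genes at 0. These 5 are thus not shown to have fallen further than genes ranked below them. CYP24A1, the vitamin D 24-hydroxylase (chromosome 17, 55110546 to 55130328), was at 53.3, 50.9 and 39.8 CPM in LPM and at 0 in CQ, at least 58.4-fold lower (adjusted p = 2.11e-06). The others were A4GALT, a glycosyltransferase (at least 35.4-fold lower), the monocyte chemokine CCL2 (at least 28.6-fold), SLC46A2 (at least 27.1-fold) and the Hedgehog ligand SHH (at least 26.7-fold). AQP3, a water and glycerol channel of the basal epithelium (chromosome 10, 33045374 to 33050285), went from 143, 143 and 129 CPM to 1.08, 0 and 0 CPM, with 16 counts left in CQ (ratio 404, 95% interval 84.5 to 8415). All of those 16 counts came from CQ library 1, and without it the gene was at 0. PTGS2, the inducible cyclooxygenase, went from 110.3, 119.6 and 104 CPM to 0.269, 0.977 and 0 CPM (ratio 261, 95% interval 62.7 to 3302), with a fitted fold of 259 that was 825 without CQ library 2. The amino acid transporter gene SLC6A14 (ratio 208, 95% interval 48.5 to 2925), the eotaxin gene CCL11 (ratio 198, 95% interval 43.1 to 3565) and the mucin-type glycosyltransferase gene GALNT6 (ratio 166, 95% interval 52.7 to 953) likewise had counts in CQ library 1 and 0 in the other two. ST6GALNAC1, which adds sialic acid to mucin glycans, fell 327-fold from 353 ± 14.5 CPM (867-fold without CQ library 1 and 218-fold without CQ library 2). Each of these genes was also called lower against the LPM arm of the FGF10 experiment.

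The 15 genes with the largest increases included a ribosomal RNA and genes for lysosomal, actin-binding and matrix proteins. RN5-8S, the 5.8S ribosomal RNA, rose from 2.60, 2.26 and 3.24 CPM to 2142, 1834 and 1969 CPM (726-fold, adjusted p = 1.74e-08). It shares an unplaced scaffold with other entries that rose, and the 8 entries of that scaffold took 0.217% of the counts in LPM and 0.772% in CQ (exact p = 0.1). Ribosomal RNA lacks a poly(A) tail, and the part of its carry-over in other results was not tested. GPNMB, a glycoprotein of lysosomes and melanosomes (chromosome 9, 92037428 to 92071501), rose from 0.0511, 0.245 and 0.0811 CPM to 45.1, 68.1 and 51.6 CPM (421-fold, 727-fold without LPM library 2). HPGD, which inactivates prostaglandins (chromosome 14, 15718261 to 15773534), rose from 0.723 ± 0.233 to 84.2 ± 3.83 CPM (113-fold, SE of log2 0.21). TAGLN, an actin-binding protein of contractile cells, rose 81.0-fold to 172 ± 33.1 CPM, COL12A1, a fibril-associated collagen, 42.0-fold to 126 ± 15.3 CPM, and ATG9B, an autophagy protein, 86.1-fold to 63.5 ± 11.7 CPM. THY1, a surface glycoprotein of stem and stromal cells, went from 9.35, 7.40 and 9.37 CPM to 256, 307 and 287 CPM (32.5-fold). The transcription factor gene KLF2 rose 29.4-fold and the calcineurin regulator gene RCAN3 43.0-fold. Over the 8 other LPM libraries of the series, scaled separately, TAGLN was at 33.5 to 67.5 CPM and THY1 at 83.8 to 214 CPM. Against the LPM arm of the FGF10 experiment their log2 fold changes were 2.07 and 1.13, in place of 6.34 and 5.02.

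Feedback inhibitors and targets of ERK fell together. Of 23 listed genes 19 were at 20 CPM, and 16 of these fell and 3 rose, with a median log2 fold change of -3.59. DUSP6, the phosphatase that switches off ERK (chromosome 5, 93303058 to 93307510), was at 358, 376 and 320.1 CPM in LPM and at 3.16, 1.59 and 0.569 CPM in CQ, so the arms lay far apart. It fell 200.0-fold (log2 fold change -7.64, SE 0.38, adjusted p = 1.06e-06), and 326-fold without CQ library 1. DUSP4, a related phosphatase, fell from 173, 193 and 158 CPM to 3.83, 0.061 and 2.21 CPM (87.0-fold, 156-fold without CQ library 1). ETV5, an ETS factor downstream of FGF receptors, had 4633 counts in LPM and 25 in CQ, all in CQ library 2 (ratio 135, 95% interval 37.0 to 1148). Over the members that fell, the median was 18.2-fold. The 3 that rose were DUSP1, a stress-inducible phosphatase of several MAP kinases, from 39.9 ± 2.52 to 219 ± 11.3 CPM (5.49-fold), MYC (1.54-fold) and IER3 (1.43-fold). The IER3 call was lost without LPM library 1 (adjusted p = 0.0599) or 2 (adjusted p = 0.0666). Against the LPM arm of the FGF10 experiment the counts were the same, 16 lower and 3 higher of 19, with a median of -3.34.

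Genes of the FGF and EGF list, which holds receptors, ligands and inhibitors of EGF receptors, fell in 8 of 12 cases and rose in 1 (median log2 fold change -0.68). LRIG1, a brake on EGF receptors and a marker of epithelial stem cells (chromosome 13, 47909002 to 48027396), fell from 192, 172 and 148 CPM to 11.2, 4.09 and 3.10 CPM (28.1-fold, 47.8-fold without CQ library 1). ERRFI1, another EGF receptor inhibitor, fell 6.60-fold to 17.6 ± 4.36 CPM and the ligand gene EREG 3.95-fold to 7.04 ± 3.10 CPM, which was not called against the LPM arm of the FGF10 experiment (adjusted p = 0.281). With that arm 11 of the 12 genes fell and 0 rose. FGFR1 rose 1.45-fold (adjusted p = 0.00221). FGFR2, whose epithelial form binds FGF10, was at 35.2, 29.2 and 25.7 CPM in LPM and 12.8, 23.01 and 11.8 CPM in CQ (1.89-fold lower, adjusted p = 0.0195). That call was lost without CQ library 1 (0.0616), CQ library 3 (0.0563) or LPM library 1 (0.0687). With the LPM arm of the FGF10 experiment the log2 fold changes of FGFR1 and FGFR2 turned to -0.10 and 0.19, and neither was called.

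Genes of the cell cycle and DNA replication fell in 25 of 27 cases at 20 CPM, out of 40 listed, and rose in 2 (median log2 fold change -3.0). MKI67, the proliferation marker (chromosome 14, 137266622 to 137296312), was at 91.8, 88.1 and 57.2 CPM in LPM and 1.21, 6.47 and 0.126 CPM in CQ (29.8-fold lower, adjusted p = 0.000633, and 122-fold without CQ library 2). TOP2A, the topoisomerase of dividing cells, fell from 163, 136 and 127 CPM to 2.29, 0.977 and 4.36 CPM (55.9-fold, 88.7-fold without CQ library 3). CDK1, the mitotic kinase, fell 32.0-fold from 87.7 ± 12.9 CPM (59.1-fold without CQ library 1). Cyclin D1 (CCND1), the cyclin that growth factors induce in G1, fell from 92.1, 102 and 85.1 CPM to 7.47, 10.1 and 5.62 CPM (12.0-fold). GINS2, a part of the replicative helicase, rose 1.93-fold to 58.7 ± 7.58 CPM, and was not called with the LPM arm of the FGF10 experiment (adjusted p = 0.0876). In bulk RNA, fewer cells of a type and less RNA per cell cannot be told apart. The count depended on the LPM arm. Over the 8 LPM libraries outside this experiment MKI67 ranged from 4.70 to 295 CPM, and TOP2A ranged from 6.69 to 295 CPM. Against the LPM arm of the FGF10 experiment 11 members were at 20 CPM, of which 5 were called lower and 3 higher, and the CDK1 log2 fold change was -0.78 (adjusted p = 0.321). There MKI67 and TOP2A were still called lower (log2 fold changes -2.97 and -2.90), and cyclin D1 was lower by more (log2 fold change -5.10).

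Among 16 p53 targets and apoptosis genes 4 rose and 6 fell, or 2 rose without LPM library 2, and with the LPM arm of the FGF10 experiment 5 of 18 rose and 10 fell. CDKN1A, the p21 inhibitor of cyclin-dependent kinases, was at 225, 239 and 218 CPM in LPM and 464, 406 and 465 CPM in CQ (1.96-fold higher, adjusted p = 6.43e-05), and was not called against the LPM arm of the FGF10 experiment, which was at 421 to 477 CPM (adjusted p = 0.799). The survival gene BCL2L1 fell 5.76-fold to 28.1 ± 1.56 CPM.

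**Figure D2:**
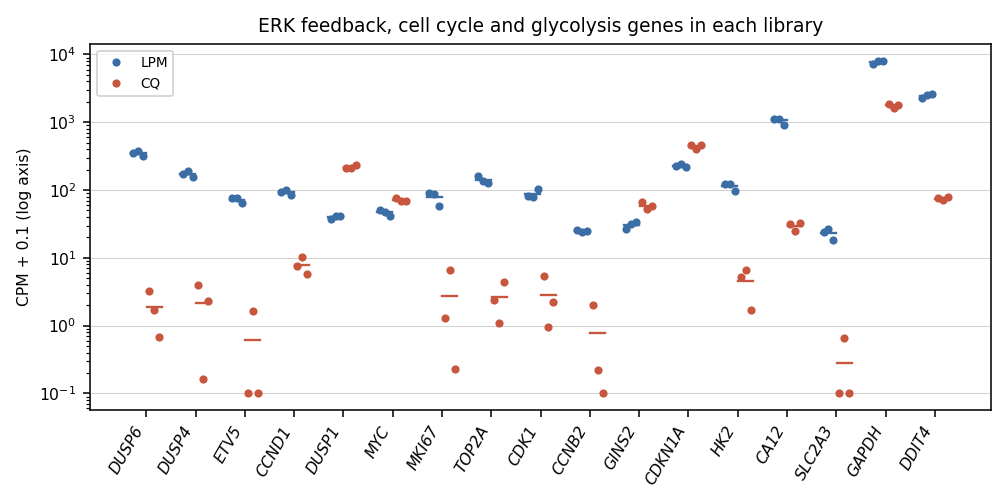
CPM plus 0.1 on a log axis for ERK feedback, cell cycle and glycolysis genes in each of the 3 LPM libraries (blue) and 3 CQ libraries (red). Points are libraries and bars are means. DUSP6, DUSP4, MKI67 and TOP2A lie above 50 CPM in every LPM library and below 10 CPM in every CQ library, while DUSP1, MYC, GINS2 and CDKN1A lie higher in CQ.

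Glycolysis and hypoxia genes fell almost without exception: of 31 at 20 CPM, 30 fell and 0 rose (median log2 fold change -1.94), and 31 of 32 fell against the LPM arm of the FGF10 experiment (median -1.51). GAPDH, the glycolytic dehydrogenase (chromosome 5, 64129678 to 64135194), fell from 7196, 8153 and 8007 CPM to 1866, 1616 and 1825 CPM (4.40-fold, adjusted p = 5.82e-07). HK2, the inducible hexokinase, fell from 122, 124 and 96.2 CPM to 5.11, 6.53 and 1.58 CPM (25.8-fold) and CA12, a hypoxia-induced carbonic anhydrase, from 1127, 1136 and 924 CPM to 31.7, 24.8 and 32.0 CPM (36.0-fold). The glucose transporter gene SLC2A1 fell 2.03-fold to 146 ± 8.47 CPM, and SLC2A3 had 1472 counts in LPM and 9 in CQ, all in library 2 (ratio 119, 95% interval 16.6 to 17738). DDIT4, an inhibitor of mTOR induced by low oxygen and other stress (chromosome 14, 75117708 to 75119907), fell from 2261, 2504 and 2620.0 CPM to 76.4, 70.2 and 78.0 CPM (32.9-fold, adjusted p = 4.73e-08). The vasoactive peptide gene ADM fell 8.07-fold, from 291 ± 38.5 to 36.1 ± 4.63 CPM. Other LPM libraries held 40.9 to 306 CPM of ADM, so its size depended on the arm (log2 fold change -0.49 against the FGF10 experiment's LPM).

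Nuclear genes of oxidative phosphorylation did not move together. Of 20 at 20 CPM (17 of 37 listed symbols had no entry), 4 rose and 5 fell, with a median log2 fold change of 0.03, and CYCS, cytochrome c, rose 2.15-fold to 142 ± 18.3 CPM. Genes of the mitochondrial genome fell in 9 of 13 cases and took 3.58 ± 0.0707% of the counts in LPM and 2.69 ± 0.322% in CQ (exact p = 0.1). COX3 fell 1.87-fold to 2582 ± 267 CPM and ND3 2.55-fold to 177 ± 16.2 CPM, while COX1 was at 9672 ± 439.9 and 8827 ± 1109.8 CPM (adjusted p = 0.316). Of 67 cytosolic ribosomal protein genes 8 rose and 18 fell (median -0.07). These counts rested on single libraries: without LPM library 3, in which ribosomal protein genes took 12.6% of the counts against 9.48% and 10.3% in the other two, 25 ribosomal protein genes rose and 19 fell. For oxidative phosphorylation, 1 to 7 genes rose (7 without LPM library 3) and 1 to 4 fell with any 1 library left out (1 without CQ library 3). RPL35A fell 2.51-fold and RPL28 rose 1.58-fold. With the LPM arm of the FGF10 experiment 66 of 67 ribosomal protein genes were higher in CQ (median 0.97) and 16 of 20 oxidative phosphorylation genes were higher, so no direction for either group held for both LPM arms.

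Sterol and fatty acid synthesis genes fell in 17 of 26 cases and rose in 3. SCD, the desaturase that makes monounsaturated fatty acids (chromosome 14, 111461560 to 111478033), fell from 3918, 3578 and 2883 CPM to 657, 632 and 565 CPM (5.598-fold). HSD17B7, a sterol reductase, fell 3.82-fold, whereas DHCR7, the last enzyme of cholesterol synthesis, rose from 49.1, 50.1 and 60.7 CPM to 147, 180.4 and 186 CPM (3.21-fold) and FDPS, which makes farnesyl diphosphate, 2.29-fold.

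Lysosome and autophagy genes rose. Of 31 at 20 CPM, 22 rose and 1 fell (median log2 fold change 0.86). NPC2, the lysosomal cholesterol carrier (chromosome 7, 97730532 to 97740087), was at 90.6, 91.4 and 100.7 CPM in LPM and 715, 769.6 and 700.5 CPM in CQ, without overlap (7.73-fold, SE of log2 0.10, adjusted p = 1.79e-07). Its membrane partner NPC1 rose 3.82-fold to 39.4 ± 6.62 CPM and ATP6V0D1, a subunit of the lysosomal proton pump, 3.85-fold to 169 ± 4.79 CPM. Against the LPM arm of the FGF10 experiment 18 of 33 members were higher and 10 lower, with a median of 0.41, and NPC2, NPC1 and ATP6V0D1 were called higher there too (log2 fold changes 2.96, 1.501 and 1.09).

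Heat shock and chaperone genes rose in 10 of 11 cases and fell in 0 (median log2 fold change 0.98). HSPH1, a nucleotide exchange factor of HSP70, rose from 50.8, 47.5 and 52.6 CPM to 294, 279 and 296 CPM (5.76-fold), HSPB1, the small heat shock protein HSP27, 4.55-fold to 549.9 ± 54.8 CPM, and HSPA8, the constitutive HSP70, 2.88-fold to 3014 ± 62.1 CPM. Of 23 antioxidant genes under NRF2, 13 rose and 6 fell. OSGIN1 rose from 23.5, 22.6 and 24.9 CPM to 177, 143 and 178 CPM (7.004-fold), TXNRD1, the cytosolic thioredoxin reductase, 3.80-fold and SRXN1, sulfiredoxin, 3.11-fold. FTL, the ferritin light chain, rose from 2155 ± 265 to 6048 ± 123 CPM (2.81-fold) and was among the 10 most abundant genes of the CQ arm. ALDH1A1, a retinaldehyde dehydrogenase, fell from 1106, 1013 and 1140.3 CPM to 95.1, 56.3 and 87.1 CPM (13.7-fold), and PRDX6, a peroxiredoxin, fell 3.85-fold. In the list of ATF4 targets and the unfolded protein response 6 genes rose and 10 fell of 24, and with the LPM arm of the FGF10 experiment 10 rose and 11 fell of 26. ATF3, a stress-induced transcription factor, rose from 11.9, 14.1 and 9.001 CPM to 217, 214 and 244 CPM (19.3-fold), TRIB3 5.25-fold and CHAC1, which degrades glutathione, 4.42-fold, whereas XBP1, a regulator of the secretory pathway, fell 2.47-fold to 135 ± 10.2 CPM. Each gene named in this paragraph had the same direction and call against the LPM arm of the FGF10 experiment.

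Both arms expressed the epithelial genes EPCAM (mean 572 CPM in LPM and 283 CPM in CQ, adjusted p = 5.33e-05) and CDH1 (882 and 867 CPM, adjusted p = 0.837). The labels give mature taste cells besides stem cells, and several defining transcripts of mature taste cells, given below, were low or absent in both arms. Of 20 type II genes in the files 7 were under 1 CPM in all 6 libraries, and of 15 type III genes 10 were. Another 5 type II genes were at 20 CPM, of which 1 was called higher, 1 lower and 3 were not called. The 3 not called were GNB1 (350 to 379 CPM in LPM and 404 to 420 CPM in CQ), AVIL (91.8 to 102 and 111 to 133 CPM) and GNA14 (27.8 to 29.9 and 20.9 to 31.7 CPM). TAS1R3, the shared subunit of the sweet and umami receptors (chromosome 6, 63613536 to 63617831), was at 17.1, 16.1 and 23.7 CPM in LPM and 20.4, 22.3 and 16.3 CPM in CQ, and the arms overlapped (log2 fold change 0.06, SE 0.21, adjusted p = 0.852). Its annotated span shares 45 bases with that of DVL1, which had 24783 counts over the 6 libraries against 2174 for TAS1R3. The part of DVL1 read pairs in the TAS1R3 counts was not tested. TRPM5, the cation channel of type II cells, was at 0.97, 1.08 and 1.87 CPM and 3.43, 0.61 and 0 CPM (adjusted p = 0.983), with 51 of its 61 CQ counts in library 1. PLCB2, the phospholipase of the same pathway, had 4 counts in LPM and 8 in CQ. GNAT3, the gustducin subunit, had 30 counts in LPM (0.243 to 0.613 CPM) and 0 in CQ, where the floor of 0.811 CPM is above the LPM level, so no difference was detectable. ITPR3, the calcium channel of type II cells that other epithelial cells also express, was at 195.9, 182 and 108 CPM and 323, 326 and 280.4 CPM (1.92-fold higher, adjusted p = 0.00454), but it was not called against the LPM arm of the FGF10 experiment (adjusted p = 0.384). TRPM4, a channel related to TRPM5, fell 2.28-fold to 17.1 ± 2.58 CPM. Of the type III list no gene reached 20 CPM, and of 4 members tested 2 were called lower and 0 higher. CHGB had 86 counts in LPM and 170 in CQ and was not called (adjusted p = 0.115). CHGA, which was not among the genes tested, had 12 counts in LPM and 134 in CQ (0.379 to 4.40 CPM across the CQ libraries). SNAP25, a synaptic fusion protein, had 436 counts in LPM and 17 in CQ (ratio 18.7, 95% interval 4.04 to 337), and PKD2L1, a channel of sour cells, 194 and 6 (ratio 23.5, 95% interval 2.38 to 36189). The PKD2L1 call (adjusted p = 0.013) was lost without any 1 LPM library (adjusted p = 0.0511 to 0.0751), and all 6 CQ counts were in CQ library 3.

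Of 7 genes of the type I list in the files 2 were at 20 CPM, and both fell. Whether these 2 genes mark type I cells in these cultures was not tested. KIT, a receptor tyrosine kinase (chromosome 8, 41402334 to 41492306), went from 404, 367 and 249 CPM to 4.98, 2.20 and 2.53 CPM (106-fold, adjusted p = 9.92e-07), and SLC4A4, a bicarbonate cotransporter, fell 3.24-fold to 36.7 ± 6.64 CPM. ENTPD2, the ectonucleotidase that defines type I cells, was at 3.32 ± 0.733 and 2.95 ± 0.4 CPM (adjusted p = 0.78), against 10.1 to 10.2 CPM in the LPM arm of the FGF10 experiment (adjusted p = 0.000422 for CQ lower). SLC1A3 had 1 count in LPM and 0 in CQ.

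Among taste progenitor and stem cell genes 8 of 13 fell and 3 rose, and against the LPM arm of the FGF10 experiment 9 of 14 fell and 4 rose. SOX2, the factor that taste progenitors require (chromosome 13, 119668476 to 119669435), fell from 206, 195.8 and 176 CPM to 68.9, 68.3 and 54.5 CPM (3.01-fold, SE of log2 0.13, adjusted p = 1.73e-05). SOX9 fell from 241, 240.2 and 223 CPM to 39.4, 15.1 and 27.7 CPM (8.58-fold) and SOX21, a repressor of epithelial SOX2 programmes, from 64.2, 61.4 and 64.0 CPM to 1.41, 1.28 and 2.84 CPM (34.1-fold). SHH, the ligand of basal taste precursors, was at 24.2, 21.1 and 20.0 CPM in LPM and at 0 in each CQ library. LGR6, an R-spondin receptor of taste stem cells, was below 20 CPM in both arms and fell 3.21-fold, from 13.9 ± 1.35 to 4.34 ± 0.941 CPM. Its relative LGR5 had 0 counts in LPM and 23 in CQ, all in CQ library 1 and under the floor. PITX1, a transcription factor of oral epithelium (chromosome 2, 137200424 to 137212500), moved the other way, from 139, 135 and 169 CPM to 829, 752 and 754 CPM (5.27-fold), and FOXA1 rose 1.81-fold.

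Keratin genes changed in both directions. KRT5, the keratin of basal cells, was at 1810.4, 1797 and 2127 CPM in LPM and 2388, 2119.5 and 2094 CPM in CQ, with overlapping arms (log2 fold change 0.20, adjusted p = 0.124, and adjusted p = 0.0135 without LPM library 3). Against the LPM arm of the FGF10 experiment, at 4276 to 4401 CPM, it was lower in CQ (log2 fold change -0.94). KRT6A, induced in wounded and stressed epithelium (chromosome 5, 17830147 to 17851113), rose from 1009, 1024 and 1167 CPM to 3507, 3461 and 3325 CPM (3.22-fold, adjusted p = 1.55e-06), KRT8 of simple epithelium and taste buds 1.61-fold to 2128 ± 61.3 CPM and KRT7 1.80-fold to 421 ± 38.9 CPM. KRT20, a keratin of differentiated gut and urothelial cells, fell from 523, 486 and 502 CPM to 8.34, 6.71 and 2.84 CPM (84.6-fold), and KRT4, a keratin of suprabasal mucosa, 8.35-fold to 8.22 ± 1.91 CPM. KRT8, KRT6A, KRT20 and KRT4 kept their direction against the LPM arm of the FGF10 experiment, while KRT7 turned to -1.85 on the log2 scale. Of 15 basal keratinocyte genes at 20 CPM 7 fell and 3 rose, and with the LPM arm of the FGF10 experiment 12 fell and 2 rose. TP63, the master regulator of stratified epithelium (chromosome 13, 127115990 to 127347082), fell from 146, 132 and 129 CPM to 23.9, 27.4 and 31.8 CPM (4.89-fold), the neurotrophin receptor gene NGFR 19.3-fold to 31.2 ± 9.39 CPM and DLK2, a Notch-related surface protein, 38.3-fold to 7.09 ± 0.402 CPM. Of 12 suprabasal genes 4 rose and 3 fell, whereas 2 rose and 10 fell with the other LPM arm. The desmosomal cadherin gene DSC2 rose 2.07-fold to 1014 ± 106 CPM, and the corneodesmosin gene CDSN fell 6.84-fold.

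**Figure D3:**
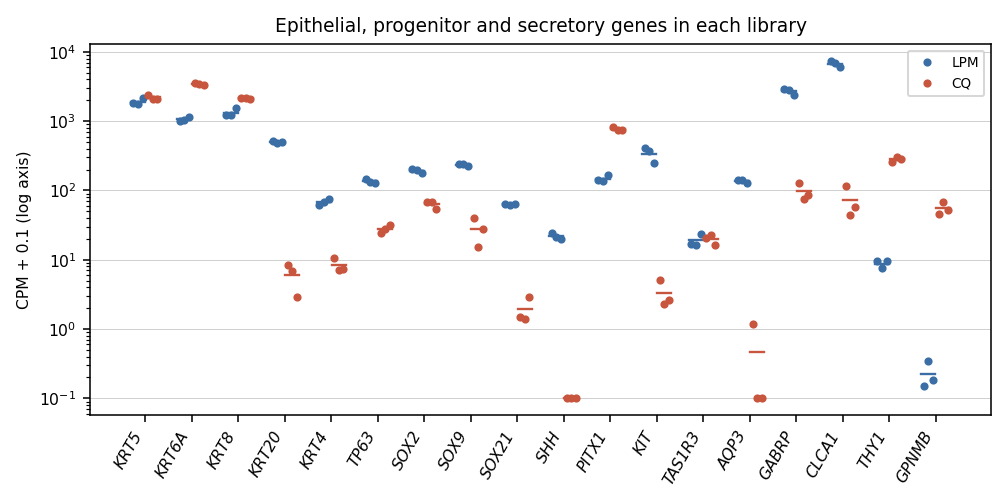
CPM plus 0.1 on a log axis for keratin, progenitor, taste and secretory genes in each of the 3 LPM libraries (blue) and 3 CQ libraries (red). Points are libraries and bars are means. The arms overlap for KRT5 and TAS1R3, KRT6A and PITX1 lie higher in CQ, and SHH is at 0 in all 3 CQ libraries, drawn at 0.1.

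Secretory and mucosal surface genes fell in 7 of 9 cases and rose in 1 (median log2 fold change -2.80), and 13 of 14 fell with the LPM arm of the FGF10 experiment (median -4.80). CLCA1, a secreted regulator of mucus and chloride channels (chromosome 4, 129621259 to 129655385), was among the 10 most abundant genes of LPM at 7452, 6915 and 6028 CPM and was at 114, 44.4 and 58.5 CPM in CQ (94.0-fold lower, adjusted p = 2.04e-06). C7H6orf15, a gene of mucosal surface epithelium, fell from 10701, 11124 and 14224 CPM to 330.0, 205 and 239 CPM (46.6-fold), and GABRP, a GABA receptor subunit of secretory epithelium, from 2933, 2859 and 2405 CPM to 130.0, 75.8 and 86.0 CPM (28.1-fold). WFDC2, a secreted protease inhibitor, fell 23.2-fold to 8.66 ± 2.86 CPM. BPIFA1, an airway and oral antimicrobial protein, fell 11.7-fold from 3436 ± 448 CPM, but it was at 40.5 to 46.9 CPM in the LPM arm of the FGF10 experiment, against which CQ was higher (log2 fold change 2.76). Of 8 genes of S100 calcium-binding proteins 5 fell and 1 rose, and 9 of 11 fell with the other LPM arm. S100A2, a target of p63, fell 3.17-fold from 9139 ± 1968 CPM, and was not called against the LPM arm of the FGF10 experiment (log2 fold change -0.17, adjusted p = 0.101), while the alarmin gene S100A12 fell 11.5-fold to 2.88 ± 1.02 CPM.

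Genes of the actin cytoskeleton, many of them targets of SRF, rose in 15 of 24 cases and fell in 7 (median log2 fold change 0.76). TPM4, a tropomyosin of non-muscle cells (chromosome 2, 61453721 to 61476781), rose from 443, 453 and 344 CPM to 1931, 2009.5 and 1893 CPM (4.71-fold, adjusted p = 1.62e-06), and FLNA, which crosslinks actin filaments, 3.92-fold to 1615 ± 109.7 CPM. TPM1 fell 2.31-fold, CTGF, a matricellular target of YAP, 10.4-fold and EGR1, an immediate early gene of SRF and ERK, from 282, 305 and 249.8 CPM to 35.3, 33.7 and 38.4 CPM (7.79-fold). With the LPM arm of the FGF10 experiment 10 of 24 rose and 8 fell, with a median of 0.04, and TPM4 and FLNA rose there as well. Integrin and laminin genes divided, with 9 of 18 lower and 5 higher, or 14 of 19 lower with the other LPM arm. ITGB6, an epithelial integrin that activates TGF-beta, fell from 195, 185 and 163 CPM to 9.42, 12.0 and 13.5 CPM (15.5-fold) and its partner ITGAV 6.08-fold to 72.0 ± 6.72 CPM, as did COL7A1, the anchoring fibril collagen (14.9-fold). The laminin genes LAMC1 and LAMA3 rose 3.23-fold and 2.33-fold. Of 11 matrix protease and inhibitor genes 6 fell and 3 rose, and 9 of 12 fell and 1 rose with the other LPM arm. PLAU, urokinase, fell from 442, 503 and 476 CPM to 5.31, 9.58 and 0.253 CPM (93.3-fold, 176-fold without CQ library 2), TIMP3 16.2-fold and MMP7 15.5-fold. Of 12 tight junction genes 4 fell and 3 rose, and 11 of 14 fell with the LPM arm of the FGF10 experiment. CLDN4 rose 2.17-fold to 603 ± 3.94 CPM but was lower against the LPM arm of the FGF10 experiment (log2 fold change -0.67), and CLDN3, its neighbour on chromosome 3, fell 5.58-fold to 5.93 ± 3.23 CPM.

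Wnt genes rose in 7 of 13 cases and fell in 4. WNT11, a ligand of the non-canonical branch (chromosome 9, 10413182 to 10435158), rose from 9.45, 7.70 and 10.3 CPM to 165, 177 and 142 CPM (17.6-fold), and APCDD1, a membrane inhibitor of Wnt, 3.004-fold to 46.9 ± 7.96 CPM. AXIN2, the feedback scaffold that reads out Wnt signalling, was at 30.8, 26.4 and 26.3 CPM and 48.8, 48.0 and 34.8 CPM (1.58-fold higher, adjusted p = 0.0104), a call lost without LPM library 2 (adjusted p = 0.0599). WNT5A fell 5.28-fold to 9.97 ± 2.92 CPM, and cyclin D1, also a Wnt target, fell as given above. With the LPM arm of the FGF10 experiment 6 of 16 rose and 8 fell. In the Hedgehog list 3 of 4 genes fell and 1 rose, and 3 fell and 0 rose with the other LPM arm. Besides SHH, the receptor component SMO fell 1.57-fold and the inhibitor SUFU 1.83-fold. GLI1, the target that reads out the pathway, had 1 count in LPM and 16 in CQ, under the floor. Notch genes fell in 7 of 12 cases and rose in 3, and 11 of 13 fell with the other LPM arm. The ligand gene JAG1 fell from 494, 474 and 393 CPM to 64.9, 75.8 and 84.1 CPM (6.05-fold), the target HEY1 from 133, 123 and 147 CPM to 5.38, 3.05 and 3.22 CPM (34.6-fold), and HES4, another target, from 1571 counts to 10, all in CQ library 3 (ratio 114, 95% interval 17.3 to 10797), while the glycosyltransferase gene RFNG rose 2.68-fold. BMP and TGF-beta targets were evenly split, with 7 of 15 higher and 7 lower, and 7 and 8 of 16 with the other LPM arm. ID3 and ID4, inhibitors of basic helix-loop-helix factors, rose 8.73-fold and 2.60-fold, TGFBI 3.76-fold, whereas BAMBI, a decoy receptor, fell 7.10-fold.

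The series title names insulin. INS (chromosome 2, 1496842 to 1498052) had 0 counts in all 6 libraries, which allows at most 0.0464 CPM in the LPM arm and 0.811 CPM in the CQ arm for read pairs that the counting could assign to it. The LPM bound takes 1 read as 1 molecule, although the variance of low counts in LPM was 1.75 times the mean. Of 17 hormone genes in the files 10 had 0 counts throughout and ADM alone was at 20 CPM. Of 16 endocrine lineage factors 5 had 0 counts in all 6 libraries, PDX1, NEUROD1, NEUROG3, NKX2-2 and NKX6-1. FOXA2, a factor of endodermal epithelium, fell 1.49-fold to 64.7 ± 8.12 CPM. In the insulin and IGF list 7 of 15 genes fell and 3 rose. The secreted IGF carriers IGFBP3 (chromosome 18, 50002921 to 50009425), at 637, 651 and 573 CPM in LPM and 27.6, 32.0 and 28.6 CPM in CQ, and IGFBP2, at 488, 492 and 728 CPM and 13.5, 13.8 and 12.7 CPM, fell 21.1-fold and 42.7-fold. IGF2R, which carries IGF2 and lysosomal enzymes to the lysosome, rose 2.83-fold to 353 ± 13.2 CPM.

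Prostaglandin genes fell in 4 of 9 cases and rose in 3 (median log2 fold change -0.51). With the other LPM arm 2 of 6 fell and 3 rose (median 0.46). Besides the fall of PTGS2 and the rise of HPGD given above, the exporter gene ABCC4 fell from 408, 356 and 271 CPM to 20.9, 9.52 and 15.5 CPM (22.6-fold), and PLA2G4A, which frees arachidonic acid, 24.6-fold (49.8-fold without CQ library 3). PLA2G4A and PTGS2 are neighbours on chromosome 9 whose annotated spans overlap. Whether their exons overlap was not tested. Of 18 cAMP-responsive and immediate early genes 9 rose and 6 fell. KLF2, ATF3 and DUSP1 rose as given above, and PDE4B, a phosphodiesterase that cAMP induces, fell from 223, 214 and 158 CPM to 4.84, 6.10 and 5.69 CPM (35.6-fold), as did JUNB (6.00-fold). Circadian clock genes fell in 9 of 11 cases and rose in 0. PER2 fell from 28.9, 31.6 and 23.1 CPM to 2.02, 3.66 and 1.64 CPM (11.3-fold), TEF 10.98-fold and NR1D1, which encodes REV-ERB alpha, 7.27-fold. The labels give no hour of lysis.

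Cytokine and NF-kB genes fell in 12 of 18 cases and rose in 3. The neutrophil chemokine gene CXCL8 went from 27.9, 23.3 and 24.7 CPM to 0.807, 0.244 and 0.19 CPM (ratio 62.5, 95% interval 14.5 to 879, with a fitted fold of 61.3 that was 114 without CQ library 1) and the alarmin gene IL1A from 28.5, 28.7 and 27.4 CPM to 0.942, 0 and 0.569 CPM (ratio 57.6, 95% interval 15.03 to 563, with a fitted fold of 56.5 that was 99.5 without CQ library 1), while CXCL16 rose 2.63-fold. Retinoid genes fell in 6 of 9 cases and rose in 0, and 9 of 10 fell with the other LPM arm. RDH10, which makes retinaldehyde, fell 6.01-fold to 22.1 ± 2.80 CPM and CYP26A1, which degrades retinoic acid, 5.37-fold to 10.6 ± 4.86 CPM. Epithelial transcription factor genes fell in 15 of 24 cases and rose in 3, with EHF of secretory and surface epithelium 5.53-fold lower, at 46.7 ± 4.50 CPM. The metallothionein genes MT1A and MT1D fell 14.7-fold and 10.3-fold. Of 6 interferon-stimulated genes at 20 CPM 2 rose and 2 fell, with IRF7 2.86-fold higher and ISG15 4.07-fold lower, and of 9 antigen presentation genes 5 fell and 1 rose, where without LPM library 3 only 2 were called lower.

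**Figure D4:**
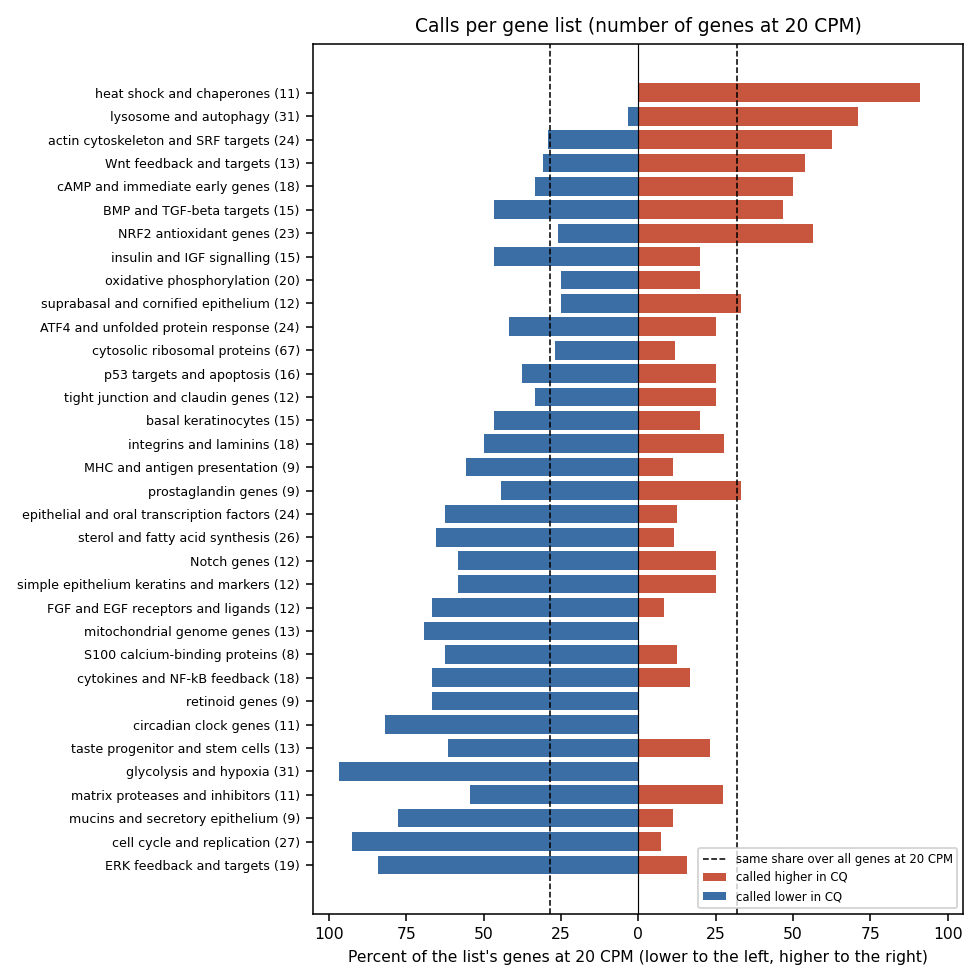
Percent of each gene list's members at 20 CPM that were called higher (red, to the right) or lower in CQ (blue, to the left), for lists with at least 8 such members, whose number stands in parentheses. Dashed lines mark the same shares over all genes at 20 CPM, 31.8% and 28.6%. Glycolysis, cell cycle and ERK feedback lie far beyond the line on the lower side, and heat shock and lysosome genes on the higher side.

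Most defining markers of other cells of the tongue were near 0 in both arms. PTPRC, the pan-leukocyte marker, had 2 counts in LPM and 13 in CQ, COL1A1 3 and 0, and MYH2 0 and 17. Of 17 fibroblast genes 12 were under 1 CPM in all 6 libraries, with DCN, LUM and COL1A2 at 0 counts, and their summed level was 26.4 to 39.1 CPM in LPM and 264 to 311 CPM in CQ, where THY1 made up most of it. Of 12 endothelial genes none was at 20 CPM and CDH5 was at 0, while PECAM1 had 355 counts in LPM and 27 in CQ. KDR, a VEGF receptor, was at 11.1, 10.0 and 6.37 CPM in LPM and 0 in CQ, at least 11.04-fold lower. Of 20 immune genes 14 were under 1 CPM throughout, with CD163, CD3E and MS4A1 at 0. Their summed level was 71.5 to 93.3 CPM in LPM and 34.2 to 48.3 CPM in CQ, and the AIF1 and CD68 genes, at 20 CPM, fell 2.66-fold and 2.46-fold. Below 20 CPM, CD79A (117 counts in LPM and 240 in CQ) and CSF1R (5 and 62) were called higher. CD14 (146 and 8) was called lower. Muscle genes summed to 1.26 to 3.14 CPM in LPM and 2.82 to 3.97 CPM in CQ, with ACTA1 and DES at 0. Nerve and Schwann cell genes summed to 3.17 to 5.74 CPM in LPM and 26.3 to 38.8 CPM in CQ, with SOX10 at 1 count in LPM and 0 in CQ. Most of the CQ sum was NEFM, a neurofilament gene, at 0.306, 1.27 and 1.18 CPM and 21.9, 14.9 and 16.0 CPM (18.8-fold higher). Of 4 members tested 3 were called higher and 0 lower. Besides NEFM these were ELAVL3 (22 counts in LPM and 242 in CQ) and UCHL1 (29 and 260), all below 20 CPM.

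To place the changes beside the tissue, the same genes were read in a separate comparison of 5 libraries of foliate papillae with 5 of passage 1 organoids, in which 35.1% of 16311 genes were called higher and 32.4% lower in papillae. Of the genes at 20 CPM with a value there, 15.4% were higher and 51.2% lower in papillae. Genes called higher in CQ were higher in papillae in 21.1% of 2598 cases and lower in 38.6%. Genes called lower in CQ were higher in papillae in 11.4% of 2325 cases and lower in 61.3%. The other way round, of 1252 genes higher in papillae 43.8% were called higher in CQ and 21.1% lower. These shares are descriptions, without a test. Papillae also hold muscle, stroma, vessels and glands and were extracted with another kit, so tissue makeup and kit cannot be told apart from the state of the epithelium. Among named genes, GPNMB, KLF2 and HPGD were higher both in CQ and in papillae, whereas AQP3, which fell in CQ, was higher in papillae (median 809 CPM) than in passage 1 organoids (median 16.7 CPM).

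**Figure D5:**
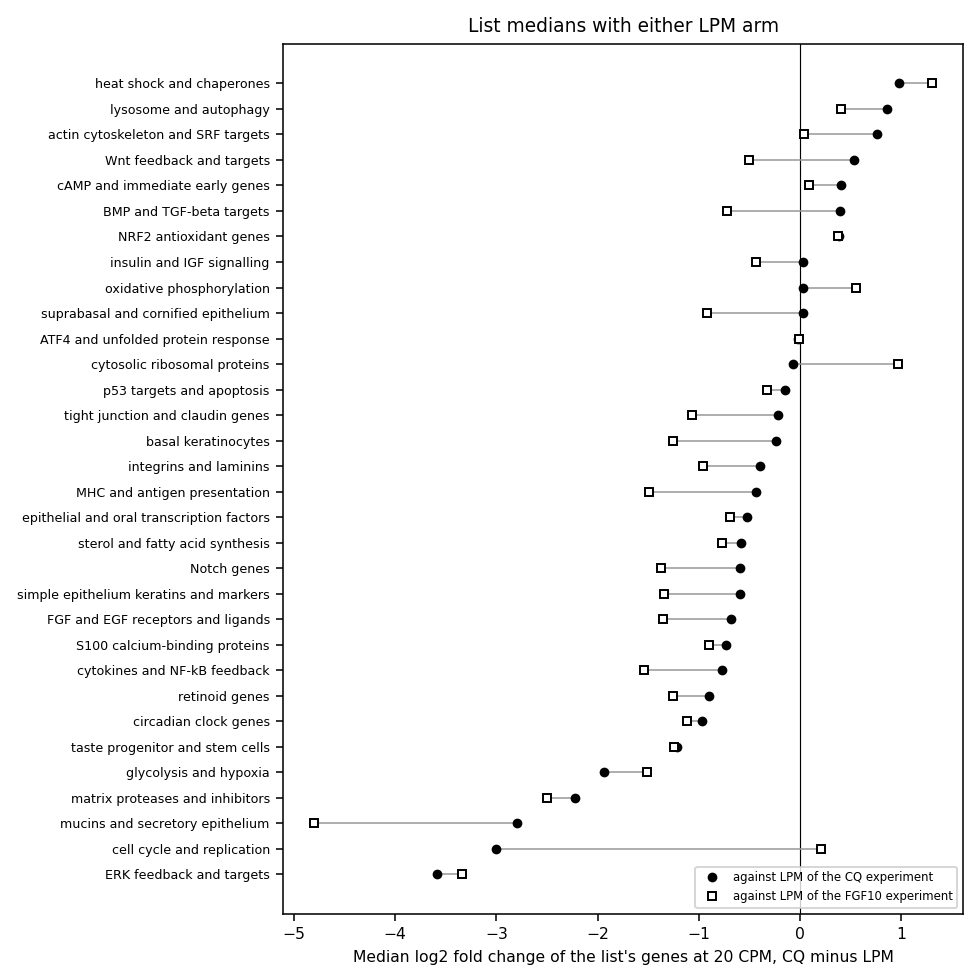
Median log2 fold change of each list's genes at 20 CPM when the 3 CQ libraries are set against the 3 LPM libraries of their own experiment (filled circles) or the 3 LPM libraries of the FGF10 experiment (open squares), for lists with at least 8 such genes in both. ERK feedback lies at -3.59 and -3.34 and glycolysis at -1.94 and -1.51, while cell cycle lies at -3.0 and 0.21 and ribosomal proteins at -0.07 and 0.97.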

How the data were processed

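RNA of the 6 organoid libraries was selected with poly-T beads, per the labels' protocols. The deposited values are raw counts. Per the file headers, the authors assigned read pairs to genes with featureCounts 2.0.6 without regard to strand, with multimapping reads left out and read pairs in overlapping genes counted for each. STAR 2.7.10b, FastQC 0.11.9, MultiQC 1.14 and DESeq2 are named in the submitters' processing notes, and no genome build is. Gene coordinates in the files overlap the RefSeq table of assembly Sscrofa11.1 for 29850 of 29850 genes, and are printed as the files give them. The other 16 libraries were counted on 27376 genes of another annotation, 26838 of them shared, so their CPM were scaled separately.

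One entry without a gene name (0.326 to 0.477% of counts) was left out. Groups come from the sample titles and treatment labels. The raw counts were tested with edgeR 4.0.16 (R 4.3.3; TMM factors, filterByExpr, quasi-likelihood test, no covariate) on the 3 CQ and 3 LPM libraries, with p-values adjusted by Benjamini-Hochberg over the 13827 genes that passed the filter, and calls at an adjusted p under 0.05. The script was tested on simulated data. Single values of a library were compared with exact two-sided permutation tests (scipy 1.17.1). Interval bounds of count ratios divide CQ counts by the reads per molecule (95% level).

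The comparison and its 50 gene lists (1121 genes, 1051 in the files) were chosen with earlier results of these data known. Lists are described by counts and medians beside the same over all genes. The text names genes from a fixed set of taste, Wnt, Hedgehog and FGF readouts, from the 15 largest changes per direction at 20 CPM without overlap between arms, from up to 3 called members per direction of each list, and from the 10 most abundant genes of each arm. EPCAM, CDH1, PECAM1, PTPRC, COL1A1, MYH2, SLC1A3 and the genes given as at 0 are members of marker lists. The annotated spans of 64 of the 247 named genes overlap another gene, where read pairs in any exons that both share count for both. Exons were not compared. Alternatives were DESeq2 1.42.0, limma 3.58.1, other scalings and filters, a 1.5-fold threshold, a block on sample number, rescaled CQ counts, the LPM arm of the FGF10 experiment, and leaving out each library. Some genes that the rule names are not reported here.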

Additional observations from a re-analysis of the deposited data

How the results depend on the processing

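Counts of genes called stayed within 1.5 times the main counts under 9 of 10 alternative fits and with any 1 library left out. DESeq2 called 2659 genes at 20 CPM higher and 2434 lower, limma-voom with arm weights 2693 and 2378, scaling by library size alone 2899 and 2107, and CQ counts divided by reads per molecule 2631 and 2429. The exception was the test against a 1.5-fold change, which called 1443 genes higher and 2110 lower, of them 1087 and 1374 at 20 CPM, since it asks for a larger change. With a minimum of 50 CPM in place of 20, 1459 genes were lower, since fewer genes qualified. Leaving out 1 library gave 2275 to 3346 genes higher and 2658 to 3766 lower, or 1937 to 2579 and 2000 to 2374 at 20 CPM, the lowest without LPM library 2. Of the 4936 calls at 20 CPM, 4915 kept call and direction with DESeq2, 3923 to 4586 with 1 library left out and 2461 against 1.5-fold.

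A block on sample number as a pairing of the arms called 2505 genes at 20 CPM higher and 2261 lower, and 4676 of the 4936 calls remained. Deviations of equally numbered libraries correlated at -0.07, 0.049 and 0.025 (CQ 1 and LPM 1, 2 and 2, 3 and 3). Those of unequally numbered libraries correlated at -0.084 to 0.088. With 3 libraries per arm, these values cannot decide whether equally numbered samples share an origin, which the labels do not record. In the comparison of papillae with organoids, a block on the pig left 21.4% of genes higher in CQ higher in papillae and 36.6% lower, and 11.3% and 59.1% of genes lower in CQ.

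With the LPM libraries of the FGF10 experiment 3328 of the 4936 calls kept call and direction, 970 turned sign and 522 of these were called. Among 247 named genes 26 turned: KRT5 (log2 -0.94), FGFR2 (0.19), CLDN4 (-0.67), KRT7 (-1.85), DST (-0.72), EVPL (-0.88), MUC4 (-2.83), BPIFA1 (2.76), LAMA5 (-0.285), TIMP2 (-1.05), PCSK1N (-1.52), AKT1 (-0.12), WNT4 (-0.54), FGFR1 (-0.10), NOTCH1 (-0.96), NDUFV1 (-0.26), NDUFA2 (0.36), COX6C (1.04), NDUFS5 (0.46), RPL35A (0.92), RPS16 (0.995), RPL14 (0.77), STARD4 (0.068), B2M (0.50), GRHL3 (-0.595) and RPL17 (1.23). The cause was not tested. A search of promoters for motifs was not run. In CQ, genes under the floor of 0.811 CPM cannot be told from 0.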

Other observations

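Loci without a gene symbol stood among the strongest changes, and LOC100513133 is named for its abundance. LOC110258215 and LOC110258214, whose annotated spans overlap on an unplaced scaffold, rose 623-fold and 65.3-fold. LOC100737113, a protein-coding gene next to KRT19 and KRT15 (chromosome 12, 21024395 to 21029875), was at 85.6, 82.4 and 116 CPM in LPM and 2484, 2669 and 2401 CPM in CQ (26.6-fold higher). LOC100513133, a long non-coding RNA between LTBP3 and FRMD8 (chromosome 2, 6803590 to 6811708), was among the 10 most abundant genes of the CQ arm, at 1019, 1406 and 1833 CPM in LPM and 3766, 3868 and 4705 CPM in CQ (2.90-fold higher). LOC100519082, next to IFITM1 and IFITM3 (chromosome 2, 152490 to 154732), fell from 75.5, 83.4 and 96.1 CPM to 0.471, 0.794 and 0.316 CPM (ratio 162, 95% interval 44.2 to 1374). LOC100525396 lies between AMCF-II and CXCL2 (chromosome 8, 70054796 to 70057033). It went from 27.1, 24.96 and 36.2 CPM to 0.404, 0 and 0 CPM (ratio 235, 95% interval 23.9 to 359350.0), with all of its 6 CQ counts in library 1. The gene tables used here give LOC100737113, LOC100513133, LOC100519082 and LOC100525396 no other symbol.

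Among the most abundant transcripts of CQ, the translation elongation factor gene EEF1A1 was at 19324 ± 716 CPM in LPM and 26762 ± 539 CPM in CQ (1.38-fold higher), and the cytoplasmic actin gene ACTG1 rose 1.73-fold, from 3283 ± 268 to 5679 ± 231 CPM. TPT1, whose message carries the same 5′ terminal oligopyrimidine motif as EEF1A1, was not called, at 5513 ± 771 CPM in LPM and 6299.7 ± 105.2 CPM in CQ (adjusted p = 0.156). Without LPM library 3 its adjusted p was 0.00204.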
